A study of Mus musculus with 8 samples.

Results

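Autophagy genes were followed across RNA-sequencing libraries of mouse intestinal cells that carry a Paneth cell lineage label. The set holds 10 genes listed by name, with earlier results of these data known: Ulk1, Becn1, Atg5, Atg7, Atg16l1, Atg4b, Map1lc3a, Map1lc3b, Sqstm1 and Lrrk2. All 10 are among the 24013 symbols of the deposited table, and 9 of them passed the filter on low values that left 11190 genes for testing. All mice were Lyz1CreER; R26R-tdT on a mixed background (C57/BL6; 129), 8 to 14 weeks of age, and received 1 dose of 10 mg tamoxifen. The Cre is driven from Lyz1, the lysozyme gene of Paneth cells, so the red protein tdTomato marks cells that expressed Lyz1 when tamoxifen was given and the progeny of those cells. There were 3 libraries of tomato-positive CD24− cells (the derivative gate) from mice irradiated 5 days before, 3 libraries of tomato-positive CD24+ cells (the Paneth cell gate) from irradiated mice and 2 libraries of tomato-positive CD24+ cells from non-irradiated mice. No CD24− library without irradiation was analysed here. The labels do not say how many mice make up a library, so each p-value covers just the spread among these libraries, which may be technical.

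Autophagy encloses cytoplasm in a double membrane, the autophagosome, and delivers it to the lysosome. The kinase ULK1 starts the process, a lipid kinase complex with Beclin 1 (Becn1) marks the site, and 2 ubiquitin-like reactions then attach LC3 proteins to the growing membrane. In Paneth cells the same machinery supports the packaging and release of antimicrobial granules, and a variant of human ATG16L1 is a known risk factor for Crohn disease. Levels are given in FPKM, fragments per kilobase of transcript scaled to the mapped fragments of the library, as the authors deposited them. A log2 fold change (fold on a doubling scale) is from limma on log2(FPKM + 1) with its standard error (SE), and "called" means a p below 0.05 after Benjamini-Hochberg adjustment over all 11190 genes.

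The gates differed widely in what else filled the libraries. A group of 24 Paneth cell genes (8 markers plus the alpha-defensins) made up 1.41% to 9.68% of all FPKM in the irradiated CD24− libraries, 53.8% to 57.2% in the irradiated CD24+ libraries and 57.3% to 63.9% in the non-irradiated CD24+ libraries. The sum of all FPKM was 540467 to 582799, 1329221 to 1429911 and 1435059 to 1638347 in the same order of groups. The label of the CD24+ gate as Paneth cells therefore matched its 8 defining markers, all of which were detected. All 8 absorptive enterocyte markers were also detected, with summed levels of 14827 to 33422 FPKM in irradiated CD24− cells, 698 to 1218 FPKM in their CD24+ counterparts and 431 to 2097 FPKM in non-irradiated CD24+ cells. The 6 goblet cell markers summed to 3998 to 7956, 1875 to 2274 and 1390 to 1781 FPKM, and the 7 enteroendocrine markers to 347 to 3176, 237 to 1019 and 123 to 124 FPKM, in that order. Not every gene of these 2 lists followed its sum. Between irradiated CD24− and irradiated CD24+ cells Spdef was lower (means of 10.9 and 29.4 FPKM), as was Ghrl (41.5 and 148 FPKM). Muc2 overlapped (110 and 117 FPKM). Stem cell markers (5 genes) summed to 52.5 to 434, 979 to 1227 and 543 to 829 FPKM, and tuft cell markers (7 genes) to 1.66 to 3.17, 6.17 to 16.7 and 21.9 to 28.7 FPKM. The 8 immune cell markers summed to 14.2 to 157, 379 to 567 and 196 to 529 FPKM, of which Lyz2 and Cd74 made up most, while the defining gene Ptprc stayed at or below 0.539 FPKM in every library. Itgam, a myeloid gene, averaged 2.67 FPKM in irradiated CD24− cells and 0.581 FPKM in irradiated CD24+ cells. It passed the filter on low values only through its CD24− libraries, so no p-value is given for it. The 6 stromal and endothelial markers summed to 3.93 to 44.6, 1.91 to 10.9 and 0.785 to 1.31 FPKM, nearly all of it Vim, with Acta2 listed at 0 in all 8 libraries and Col1a1 in 7. From the smallest steps between low values, depth was approximated at 34.9 to 45.2 Mreads (1 Mread is 1e6 reads) per library. In bulk libraries fewer cells of a type and less RNA per cell cannot be told apart.

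The choice of scaling set where 0 lay between the gates. The part of the Paneth products in this was not tested. For irradiated CD24− over irradiated CD24+ cells the middle gene of all had a log2 fold change of 0.51 on FPKM as deposited, -0.029 after median-of-ratios scaling, which sets the typical gene equal between libraries, and 1.58 after rescaling to TPM, which forces each library to the same sum. Directions between the gates therefore depend on the scaling for many genes, and a value relative to the median gene is a difference from 0.51.

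RefSeq promoter sequences (build GRCm38.p6) were at hand for 7 of the 10 genes, and stretches of 150 bases before the start are shown for Atg5 and Map1lc3b, which were called higher in CD24− cells on the deposited scale, and Ulk1, which was not. Each stretch is the one nearest to the start that holds no annotated exon, written 5′ to 3′ on the gene's strand, and capitals mark the E-box core CACGTG.
Atg5, chr10:44268189-44268338, plus strand: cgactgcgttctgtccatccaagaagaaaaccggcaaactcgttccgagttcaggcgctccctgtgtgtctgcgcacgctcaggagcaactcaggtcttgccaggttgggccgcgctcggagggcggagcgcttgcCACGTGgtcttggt
Map1lc3b, chr8:121590211-121590360, plus strand: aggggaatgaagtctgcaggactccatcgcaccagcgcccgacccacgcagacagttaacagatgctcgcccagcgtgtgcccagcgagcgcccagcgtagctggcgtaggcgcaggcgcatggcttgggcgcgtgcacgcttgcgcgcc
Ulk1, chr5:110810098-110810247, minus strand: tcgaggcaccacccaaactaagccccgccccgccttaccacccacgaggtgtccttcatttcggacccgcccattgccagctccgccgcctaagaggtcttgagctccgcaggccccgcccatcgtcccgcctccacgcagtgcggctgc
In the full windows of 300 bases (250 before to 50 after the start) the E-box core, which reads the same on both strands and is bound by the autophagy and lysosome regulator TFEB among other factors, was found in 2 of 7 genes and in 7.15% of all 32851 windows. In Atg5 its first base lay at position -14. The other match was in the Atg7 window at -132, but that window belongs to a RefSeq start 27.967 kb away from the nearest start in the GENCODE basic set, so it may not be the promoter in use. The longer CLEAR element, the E-box core with GT before it and AC after it, was found in 0 of the 7 windows and in 0.326% of all windows. The antioxidant response element core TGACNNNGC, searched on both strands, was found in 1 of the 7 (Map1lc3b, after the start) and in 12.4% of all windows. The CpG count was 4 in the Atg7 window and 20 to 55 in the other 6, against a median of 7 in all windows.

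Levels in the set spanned a wide range, with Sqstm1, Map1lc3b and Becn1 at the top in each group, Lrrk2 at or next to 0, and Ulk1 with the lowest mean of the other 9 genes. In irradiated CD24− cells Map1lc3b stood at 67.5 ± 2.80 FPKM, Sqstm1 at 65.5 ± 15.0 FPKM and Becn1 at 65.2 ± 2.71 FPKM (SD, n = 3), which did not differ beyond their spread. Below them came Atg5 at 25.9 ± 1.81, Atg4b at 18.6 ± 1.09, Atg16l1 at 8.81 ± 0.705, Map1lc3a at 6.92 ± 0.763, Atg7 at 6.36 ± 0.686 and Ulk1 at 5.00 ± 0.640 FPKM. The ranges of Map1lc3a and Atg7, and of Atg7 and Ulk1, overlapped. In irradiated CD24+ cells the order was Sqstm1 (53.2 ± 5.80 FPKM), Map1lc3b (46.7 ± 2.26), Becn1 (31.6 ± 1.59), Atg5 (12.3 ± 0.574), Atg4b (9.54 ± 0.843), Atg7 (8.62 ± 0.491), Atg16l1 (6.13 ± 0.0269), Map1lc3a (5.26 ± 0.777) and Ulk1 (4.97 ± 0.424), where the ranges of the first 2, of Atg4b and Atg7, and of the last 2 overlapped. In non-irradiated CD24+ cells (n = 2) Sqstm1 again stood highest at 51.1 ± 12.7 FPKM, Map1lc3b followed at 39.9 ± 1.99 FPKM, and of the 9 tested genes Ulk1 had the lowest mean at 4.17 ± 0.341 FPKM, within the ranges of Map1lc3a and Atg16l1. Against all tested genes, Sqstm1 lay above 88.9% of them in irradiated CD24− cells, 94.0% in their CD24+ counterparts and 95.5% in non-irradiated CD24+ cells. Atg7 lay above 38.8%, 61.9% and 68.5% in the same groups.

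**Figure D1:**
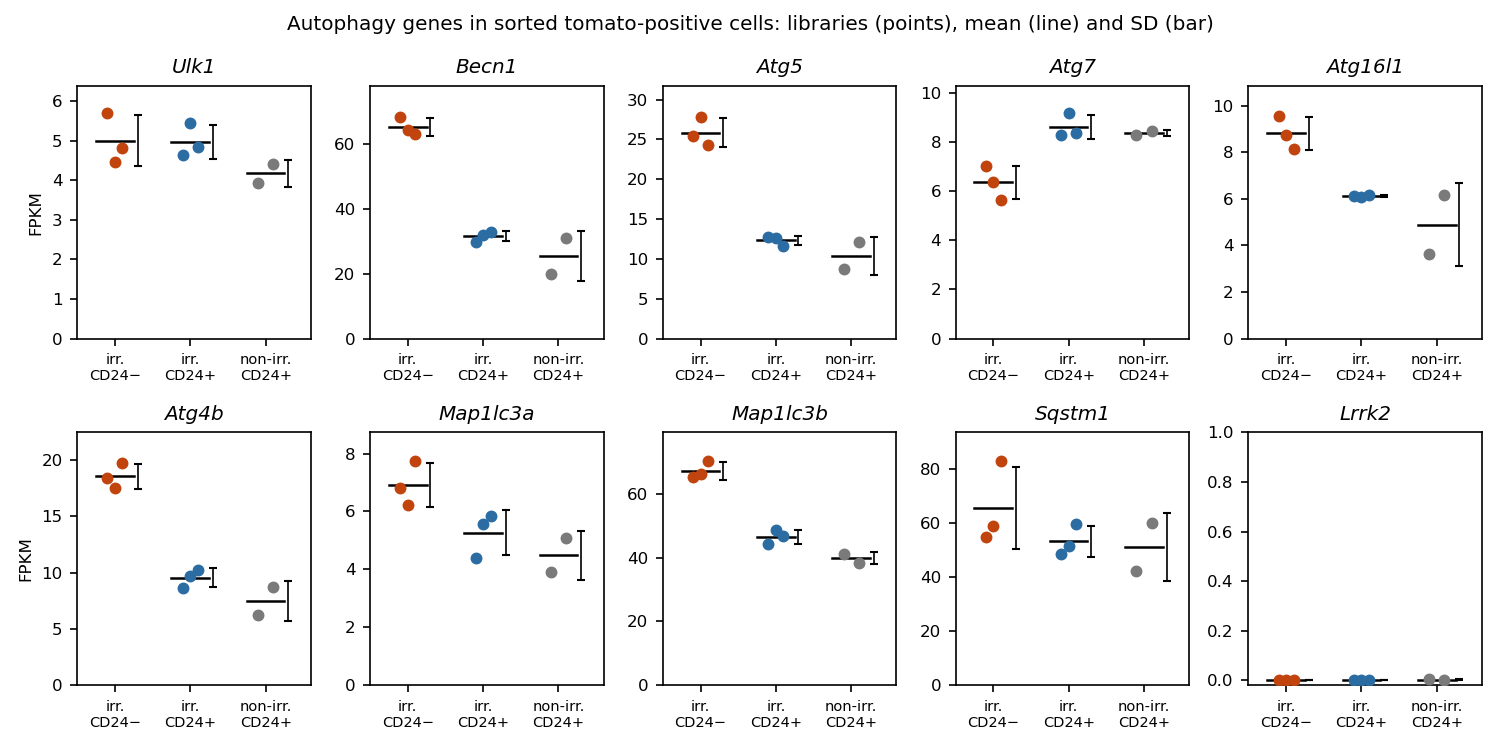
FPKM (vertical axis, from 0) of the 10 genes in each library, with irradiated CD24− cells at the left, irradiated CD24+ cells in the middle and non-irradiated CD24+ cells at the right; points are libraries, lines group means and bars SD. Becn1, Atg5 and Atg4b stand about as high again in the CD24− libraries as in the CD24+ libraries, Atg7 stands lower there, and Lrrk2 is at or next to 0 throughout.

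Between the irradiated gates the set split: on the deposited scale Becn1, Atg5 and Atg4b were about 2 times as high in the CD24− derivatives (the ratio of means was 2.07 for Becn1 and 1.95 for Atg4b), and Ulk1 overlapped between the gates, while Atg7 was lower in each CD24− library without passing the test. On that scale 4 of the 9 tested genes (44.4%) were called higher in irradiated CD24− than in irradiated CD24+ cells and 0 lower, while 48.6% of all genes were called higher and 7.27% lower, so the share called was near that of the genome. This fit ignores the replicate numbers, and with the number as a block 1 of these calls ended, that of Map1lc3b. In 6 of the 9 every CD24− library lay above every CD24+ library, which held for 59.1% of all genes, and in 1 (Atg7) every one lay below, which held for 9.31%. Higher calls under all 3 scalings were made for Becn1, Atg5 and Atg4b, 3 of 9 genes, against 30.2% of all genes. Over all genes 3305 were called higher under all 3 scalings and 3305 with median-of-ratios scaling by itself. The other 2 scalings therefore add no further check on a higher call. The median log2 fold change of the 9 was 0.46, against 0.51 for all genes, and 4 of the 9 lay above the median gene. All 9 also passed a filter at 5 FPKM in 2 libraries, with the same calls. Of the 7828 genes that passed it 59.7% were called higher and 5.12% lower, with a median of 0.73. After median-of-ratios scaling 3 of the 9 were called higher and 2 lower (29.6% and 28.6% of all genes). After rescaling to TPM all 9 were called higher (90.3% of all genes, with 2.06% called lower).

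Initiation was represented by Ulk1, the kinase that starts autophagosome formation. Ulk1 stood at 5.71, 4.46 and 4.82 FPKM in irradiated CD24− cells, against 4.63, 5.45 and 4.84 FPKM in irradiated CD24+ cells. The groups overlapped fully, and the log2 fold change was 0.0033 ± 0.17 (SE, adjusted p = 0.988). Relative to the median gene Ulk1 lay 0.51 lower, with a log2 fold change of -0.51 (adjusted p = 0.0117) after median-of-ratios scaling and 1.08 (adjusted p = 0.000172) in TPM, so its direction depends on the scaling.

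Nucleation was represented by Becn1, the Beclin 1 subunit of the lipid kinase complex. Becn1 stood at 68.3, 64.3 and 63.1 FPKM in irradiated CD24− cells, against 29.9, 31.9 and 33.0 FPKM in irradiated CD24+ cells. Each CD24− library was above each CD24+ library, the ratio of the means was 2.07, and the log2 fold change was 1.02 ± 0.21 (SE, adjusted p = 0.0019). The call also held after median-of-ratios scaling, at a smaller log2 fold change of 0.40 (adjusted p = 0.00657), and in TPM (2.27, adjusted p = 4.37e-06). Cntd1, whose exons overlap those of Becn1 on the other strand, had at most 0.357 FPKM.

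The conjugation genes did not move as 1 block. ATG7 is the activating enzyme of both ubiquitin-like reactions, ATG5 is the acceptor joined to ATG12, ATG16L1 places that conjugate on the membrane, and ATG4B trims LC3 proteins and releases them again. Atg5 stood at 25.4, 27.8 and 24.3 FPKM in irradiated CD24− cells, against 12.7, 12.6 and 11.7 FPKM in irradiated CD24+ cells. Its log2 fold change was 1.01 ± 0.19 (SE, adjusted p = 0.00087), with no overlap between the gates. Atg4b stood at 18.4, 17.6 and 19.7 FPKM in irradiated CD24− cells, against 8.62, 9.73 and 10.3 FPKM in irradiated CD24+ cells. It too was higher in every CD24− library, at a log2 fold change 0.89 ± 0.19 (SE, adjusted p = 0.0018), and both calls held after median-of-ratios scaling at smaller log2 fold changes, 0.40 for Atg5 (adjusted p = 0.0188) and 0.30 for Atg4b (adjusted p = 0.0464). In TPM the values were 2.21 and 2.08.

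Atg7 lay the other way. It stood at 7.03, 6.40 and 5.66 FPKM in irradiated CD24− cells, against 8.29, 9.18 and 8.38 FPKM in irradiated CD24+ cells. Each CD24− library was below each CD24+ library, but the log2 fold change of -0.39 ± 0.17 (SE) did not pass (adjusted p = 0.0681). Only 10.1% of all tested genes had a lower fold change. Atg7 was called lower after median-of-ratios scaling (log2 fold change -0.93, adjusted p = 0.00137) in the fit of only these gates (adjusted p = 0.0237), with no filter on low values (adjusted p = 0.0399) and without either non-irradiated library (adjusted p = 0.0230 without replicate 1 and 0.0228 without replicate 2), whereas in TPM it was called higher (0.74, adjusted p = 0.00311). Atg16l1 stood at 9.54, 8.75 and 8.13 FPKM in irradiated CD24− cells, against 6.13, 6.10 and 6.15 FPKM in irradiated CD24+ cells. The groups did not overlap, but its log2 fold change of 0.46 ± 0.19 (SE) missed the threshold (adjusted p = 0.0653), passed in the fit of only these gates (adjusted p = 0.00796) and without either non-irradiated library (adjusted p = 0.00776 and 0.00785), and was -0.10 after median-of-ratios scaling (adjusted p = 0.369) and 1.59 in TPM.

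A ratio of 2 genes within a library does not depend on scaling between libraries. Atg5 stood at 3.62, 4.35 and 4.29 times the FPKM of Atg7 in irradiated CD24− cells, 1.53, 1.37 and 1.39 times in irradiated CD24+ cells, and 1.05 and 1.43 times in non-irradiated CD24+ cells. Becn1 stood at 12.0, 14.4 and 13.1 times the FPKM of Ulk1 in irradiated CD24− cells, 6.45, 5.85 and 6.82 times in irradiated CD24+ cells, and 5.06 and 6.99 times in non-irradiated CD24+ cells. Both ratios were higher in every CD24− library than in any CD24+ library. These 2 pairs were chosen after their values were seen, so no test is given for them.

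**Figure D2:**
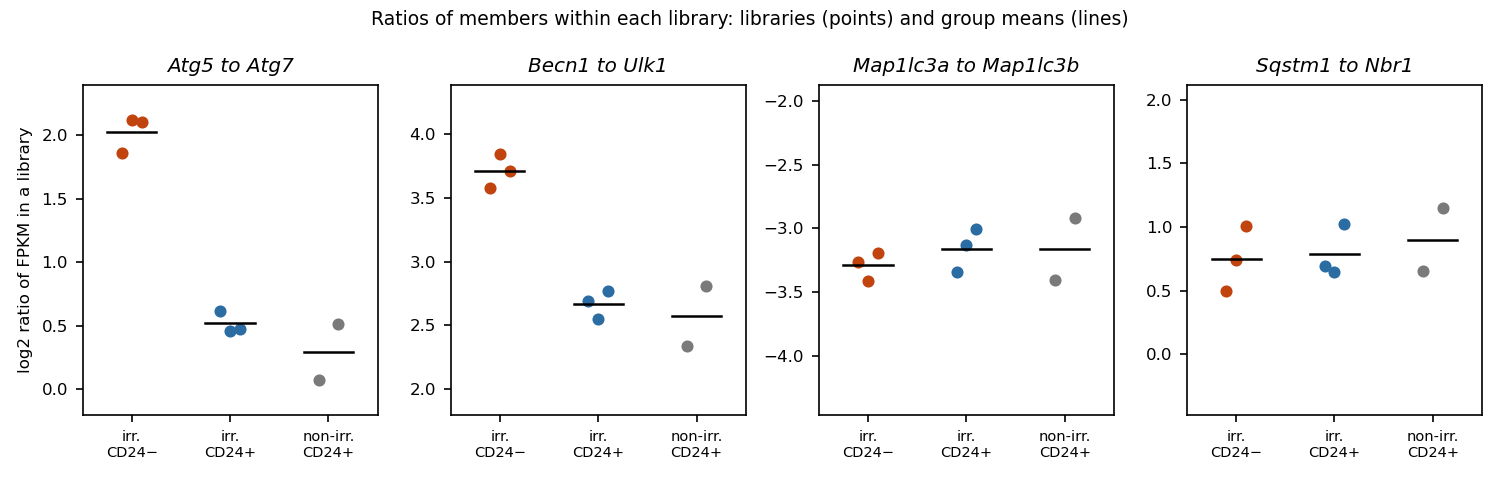
Log2 ratio of the FPKM of 2 genes in the same library (vertical axes, each spanning the same range), with irradiated CD24− cells at the left, irradiated CD24+ cells in the middle and non-irradiated CD24+ cells at the right; points are libraries and lines group means. The ratios of Atg5 to Atg7 and of Becn1 to Ulk1 stand higher in CD24− cells without overlap, while those of Map1lc3a to Map1lc3b and of Sqstm1 to Nbr1 overlap between all groups.

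The LC3 genes encode the proteins that are attached to the autophagosome membrane. Map1lc3b was the main form by level and stood at 65.4, 66.3 and 70.6 FPKM in irradiated CD24− cells, against 44.3, 48.8 and 46.8 FPKM in irradiated CD24+ cells. The log2 fold change was 0.52 ± 0.19 (SE, adjusted p = 0.0371), next to that of the median gene. The call ended with the replicate number as a block (adjusted p = 0.0700), without any 1 of the 6 irradiated libraries (adjusted p between 0.0982 and 0.155) and after median-of-ratios scaling, where the value was -0.10 (adjusted p = 0.672), while TPM gave 1.77. Zcchc14, which overlaps Map1lc3b on the other strand, had 2.53 to 7.58 FPKM, and the library kit keeps no strand. Map1lc3a stood at 6.80, 6.22 and 7.73 FPKM in irradiated CD24− cells, against 4.37, 5.58 and 5.83 FPKM in irradiated CD24+ cells, with no overlap but no call (log2 fold change 0.34 ± 0.18 (SE), adjusted p = 0.134). Its direction turned after median-of-ratios scaling (-0.20, adjusted p = 0.232), and TPM gave 1.44 with a call. The log2 ratio of Map1lc3a to Map1lc3b was -3.29 ± 0.11 in irradiated CD24− cells and -3.16 ± 0.17 in irradiated CD24+ cells (SD, n = 3 each), a difference of -0.13 (exact two-sided permutation test, p = 0.4, where 0.1 is the smallest p possible).

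Sqstm1 encodes p62, the receptor that ties ubiquitin-marked cargo to LC3. It stood at 54.9, 59.0 and 82.7 FPKM in irradiated CD24− cells, against 48.4, 51.5 and 59.6 FPKM in irradiated CD24+ cells. The gates overlapped, although Sqstm1 was higher in the CD24− library of each of the 3 same-numbered pairs, replicate 3 was the highest of each gate, and the log2 fold change was 0.28 ± 0.24 (SE, adjusted p = 0.349). Mrnip exons overlap Sqstm1 on the other strand, and its level was not analysed here. The fold change was -0.35 after median-of-ratios scaling (adjusted p = 0.153) and 1.53 in TPM (adjusted p = 0.000302). Against Nbr1, a related cargo receptor, the log2 ratio was 0.75 ± 0.26 in irradiated CD24− cells and 0.79 ± 0.21 in irradiated CD24+ cells (SD, n = 3 each; difference -0.040, exact two-sided permutation test, p = 0.9).

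Lrrk2, a kinase linked to Parkinson disease and Crohn disease and known in mouse for a part in sorting lysozyme into Paneth granules, was close to undetected. It was listed at 0 in all 3 irradiated CD24− libraries, all 3 irradiated CD24+ libraries and non-irradiated replicate 2, and at 0.00269 FPKM in non-irradiated replicate 1. For its longest GENCODE transcript (8.275 kb) that value is about 1.01 reads. As a rough upper bound for a count of 0, 3 reads would give 0.00849 to 0.0104 FPKM across the libraries listed at 0. None of 10 housekeeping genes, Tbp and Hprt among them, was listed at 0 in any library. The related gene Lrrk1 stood at 6.26 FPKM in irradiated CD24− cells, 4.07 FPKM in their CD24+ counterparts and 2.83 FPKM in non-irradiated CD24+ cells on average.

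**Figure D3:**
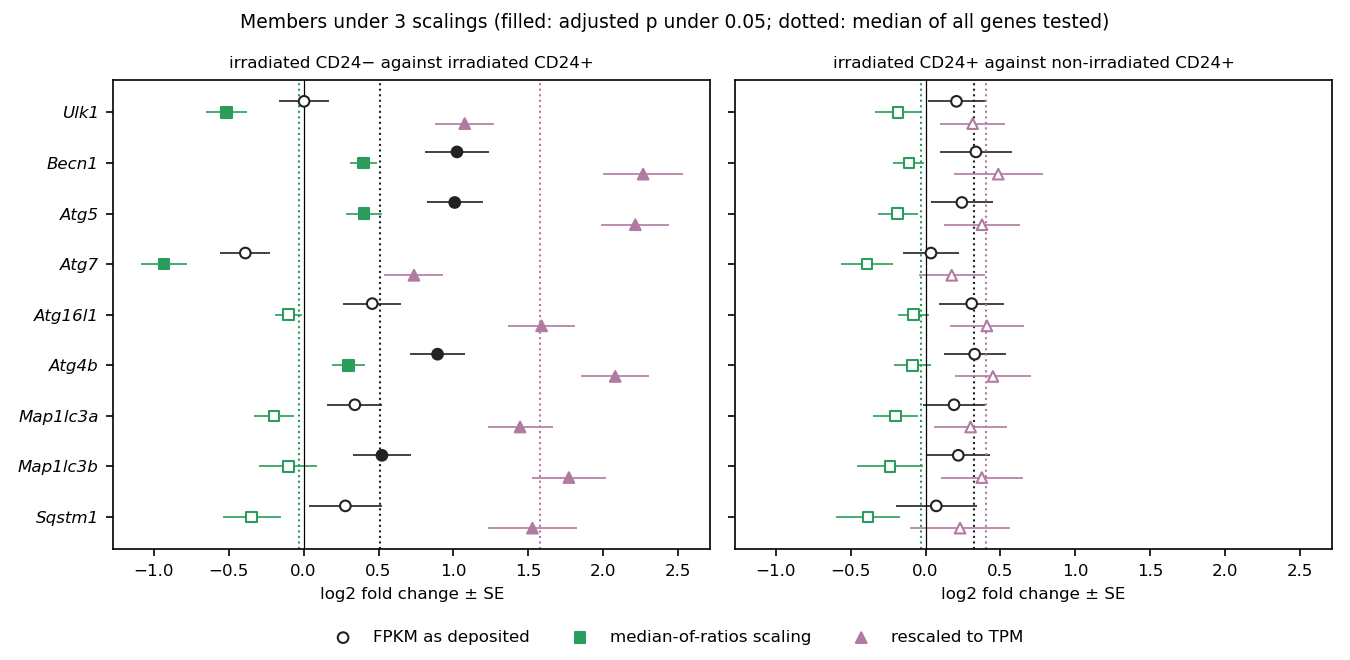
Log2 fold change ± SE (horizontal axis) of the 9 tested genes for irradiated CD24− over irradiated CD24+ cells (left) and irradiated over non-irradiated CD24+ cells (right), on FPKM as deposited (circles), after median-of-ratios scaling (squares) and in TPM (triangles); filled symbols passed an adjusted p of 0.05 and dotted lines mark the median of all genes. Between the gates Becn1, Atg5 and Atg4b are filled and right of 0 under each scaling, Atg7 is the lowest gene under each, and nothing is filled at the right.

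Of 69 further autophagy genes, 68 were tested, and 48 (70.6%) had higher calls and 5 (7.35%) lower calls in the CD24− gate of irradiated mice than in their CD24+ gate, against 48.6% and 7.27% of all genes. After median-of-ratios scaling 18 (26.5%) were higher and 10 (14.7%) lower, against 29.6% and 28.6% of all genes. The same 18 (26.5%) were higher under all 3 scalings, against 30.2% of all genes, so that count repeats the median-of-ratios one. Of the 5 lower calls, that of Atg16l2 is from a gene that passed the main filter only through its CD24+ libraries. The median log2 fold change of the 68 genes was 0.66, and 46 of 68 lay above the median gene. With the filter at 5 FPKM the median of all genes was 0.73, with 59.7% called higher and 5.12% lower. On the deposited scale the share of the 68 called higher was above that of all genes, and under all 3 scalings near it. Neither difference was tested. The enterocyte and Paneth cell markers given above also differed between the irradiated gates, in opposite directions, and their part in these counts was not tested.

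The counts by role are on the deposited scale unless stated, where 48.6% of all genes were called higher. By role, 3 of 4 genes of the ULK1 complex were called higher, with the smallest p for Atg101 (log2 fold change 0.86 ± 0.19 SE) and the Ulk1 paralog Ulk2 (0.61 ± 0.16). In the lipid kinase complex 6 of 7 were called higher, led by Rubcn (listed as 1700021K19Rik, a negative regulator, 0.85 ± 0.17) and Atg14 (0.60 ± 0.16), but after median-of-ratios scaling 0 of the 7 were called in limma. Of 8 further conjugation genes 6 were called higher, led by the protease gene Atg4d (1.49 ± 0.19) and by Atg12 (1.08 ± 0.19), the partner of ATG5. In the group of membrane supply and phosphoinositide binding 6 of 10 were called higher, with the lipid scramblase genes Atg9a (1.63 ± 0.19) and Tmem41b (1.62 ± 0.20) at the smallest p. Of 12 genes for fusion with the lysosome 10 were called higher, with the smallest p for the SNARE gene Snap29 (1.53 ± 0.17) and the tethering gene Vps18 (1.49 ± 0.19). Among 9 regulators 8 were called higher, led by Tfeb (0.92 ± 0.17), the transcription factor of lysosome and autophagy genes, and Prkaa2 (0.97 ± 0.17), a catalytic subunit of the energy sensor AMPK, and after median-of-ratios scaling Tfeb was the 1 of the 9 still called. That scaling called 29.6% of all genes higher and 28.6% lower. It called 1 higher and 1 lower of the 4 initiation genes and 3 higher and 2 lower, Atg16l2 among these, of the 8 conjugation genes. Of the 10 membrane genes it called 3 higher and 1 lower, and of the 12 fusion genes 5 higher and 1 lower. Called under each scaling were Atg101, Atg4d, Atg12, Atg9a, Tmem41b, Snap29, Vps18 and Tfeb, but not Ulk2, Rubcn, Atg14 or Prkaa2.

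The GABARAP genes, the other branch of the LC3 family, moved apart. Gabarapl2 stood at 96.6, 116 and 113 FPKM in irradiated CD24− cells, against 42.6, 46.3 and 43.8 FPKM in irradiated CD24+ cells (log2 fold change 1.27 ± 0.22 (SE), adjusted p = 0.000493). Gabarap stood at 237, 264 and 343 FPKM in irradiated CD24− cells, against 112, 119 and 123 FPKM in irradiated CD24+ cells (log2 fold change 1.23 ± 0.26 (SE), adjusted p = 0.00213). Gabarapl1 was the reverse, at 8.02, 7.68 and 11.7 FPKM in irradiated CD24− cells, against 14.6, 14.8 and 18.2 FPKM in irradiated CD24+ cells (log2 fold change -0.75 ± 0.20 (SE), adjusted p = 0.00864). Gabarap and Gabarapl2 were called higher under all 3 scalings, and Gabarapl1 was called lower under 2 and stood at 0.42 in TPM (adjusted p = 0.110).

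Cargo receptors ran from the highest to the lowest fold change of the whole list. Optn, the optineurin receptor for damaged mitochondria and bacteria, stood at 45.9, 45.2 and 72.7 FPKM in irradiated CD24− cells, against 8.07, 8.04 and 8.40 FPKM in irradiated CD24+ cells (log2 fold change 2.57 ± 0.27 (SE), adjusted p = 2.41e-05; 1.95 after median-of-ratios scaling and 3.76 in TPM). Ccpg1, a receptor for autophagy of the endoplasmic reticulum, stood at 11.2, 8.29 and 7.10 FPKM in irradiated CD24− cells, against 26.8, 24.0 and 20.1 FPKM in irradiated CD24+ cells (log2 fold change -1.33 ± 0.21 (SE), adjusted p = 0.000309). Optn was higher in every CD24− library and Ccpg1 lower in every one. Of 11 cargo receptor genes 5 (45.5%) were called higher and 2 (18.2%) lower, against 48.6% and 7.27% of all genes. The second lower call was Fam134b, also a receptor for the endoplasmic reticulum, at -0.58 ± 0.17. The other lower calls were Wipi1, a phosphoinositide-binding protein gene (-1.25 ± 0.18), and Atg16l2, a paralog of Atg16l1 (-0.64 ± 0.15) that passed the filter only through its CD24+ libraries. Fam134b, Wipi1, Gabarapl1 and Atg16l2 are named because the count was small, after their values were seen. The filter favoured a lower call for Atg16l2, so its call is no support here. All 5 lower calls held after median-of-ratios scaling, which called 28.6% of all genes lower. None held in TPM, which called 2.06% of all genes lower and 90.3% higher, Fam134b among the higher ones (0.58, adjusted p = 0.0148). These outcomes follow the shift of all genes between the scalings and are not a separate check.

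The last list held genes of the route that sorts lysozyme and others linked to Crohn disease or related to Lrrk2. Their levels were very different. Rab2a, a small GTPase of that route, stood at 89.6, 89.3 and 96.9 FPKM in irradiated CD24− cells, against 55.9, 59.4 and 60.2 FPKM in irradiated CD24+ cells (log2 fold change 0.64 ± 0.21 (SE), adjusted p = 0.0209). Nod2, the bacterial sensor of the route, averaged 0.693 FPKM in irradiated CD24− cells, 0.406 FPKM in their CD24+ counterparts and 0.163 FPKM in non-irradiated CD24+ cells and was below the filter. Of this list of 5 (Nod2, Ripk2, Rab2a, Irgm1 and Lrrk1) 4 were tested. Rab2a and Lrrk1 (0.51 ± 0.19) were called higher, 2 of the 4 (50%), against 48.6% of all genes. Both calls ended after median-of-ratios scaling, with Rab2a at 0.016 (adjusted p = 0.925) and Lrrk1 at -0.020 (adjusted p = 0.878).

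**Figure D4:**
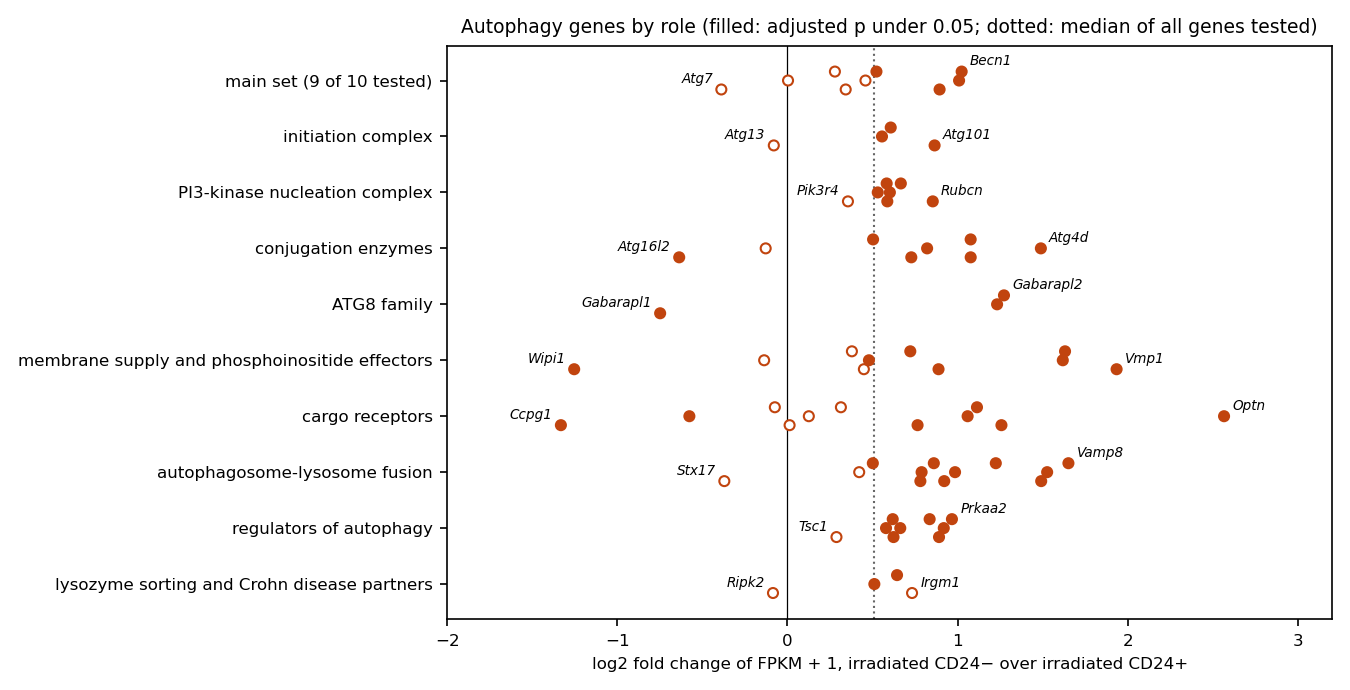
Log2 fold change of FPKM + 1, irradiated CD24− over irradiated CD24+ cells (horizontal axis), for the tested autophagy genes grouped by role; filled points passed an adjusted p of 0.05, the dotted line is the median of all genes (0.51), and the lowest and highest gene of each group are named. Cargo receptors run from Ccpg1 at -1.33 to Optn at 2.57, whereas the 9 regulators and the 7 genes of the lipid kinase complex all lie right of 0.

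Within the Paneth cell gate, irradiation 5 days earlier was not followed by a called change in any of these genes. With all libraries limma called 0 of the 9 tested members and 0 of the 68 other autophagy genes, as it called 0% of all 11190 genes, and an unadjusted p under 0.05 was reached by 0 members, 4 of the other genes, and 12.2% of all genes in the higher and 0.536% in the lower direction. Log2 fold changes of the members ran from 0.036 (Atg7) to 0.34 (Becn1), with a median of 0.22 against 0.32 for all genes. After median-of-ratios scaling all 9 values were below 0, from -0.39 (Atg7) to -0.078 (Atg16l1), so no direction can be given. That scaling called 0 of the 9 as well, against 0.00896% of all genes higher and 0.0359% lower.

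On the deposited scale non-irradiated replicate 1 lay below replicate 2 in Becn1, Atg5, Atg4b, Atg16l1, Sqstm1 and Map1lc3a. Replicate 2 was within or next to the irradiated range. Becn1 stood at 29.9, 31.9 and 33.0 FPKM in irradiated CD24+ cells, against 19.9 and 30.9 FPKM in non-irradiated CD24+ cells. Atg16l1 stood at 6.13, 6.10 and 6.15 FPKM in irradiated CD24+ cells, against 3.63 and 6.16 FPKM in non-irradiated CD24+ cells. Atg5 and Atg4b had the same layout, with 8.72 and 12.1 FPKM and 6.23 and 8.71 FPKM in non-irradiated replicates 1 and 2. Replicate 1 stood apart as a library, with 9362 genes at 1 FPKM or more, against 10293 to 10555 in the irradiated CD24+ libraries and 10344 in replicate 2. Without replicate 2, which leaves replicate 1 as a lone control assumed to vary like the other groups, 4 members passed (Becn1, Atg5, Atg16l1 and Atg4b, adjusted p between 0.0213 and 0.0449), as did 46.4% of all genes in the higher direction. Without replicate 1 none of the 9 passed, and Atg16l1 was at -0.0074.

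Atg7, Map1lc3b and Ulk1 varied less between the controls on the deposited scale. Median-of-ratios scaling divided control replicate 1 by 0.519 and replicate 2 by 0.853, so this grouping depends on the scaling. Atg7 stood at 8.29, 9.18 and 8.38 FPKM in irradiated CD24+ cells, against 8.29 and 8.46 FPKM in non-irradiated CD24+ cells, with full overlap. Map1lc3b stood at 44.3, 48.8 and 46.8 FPKM in irradiated CD24+ cells, against 41.4 and 38.5 FPKM in non-irradiated CD24+ cells. Ulk1 stood at 4.63, 5.45 and 4.84 FPKM in irradiated CD24+ cells, against 3.93 and 4.41 FPKM in non-irradiated CD24+ cells. For Map1lc3b (log2 fold change 0.22 ± 0.21 SE, adjusted p = 0.478) and Ulk1 (0.21 ± 0.19, adjusted p = 0.450) every irradiated library was above both controls, as was so for 34.2% of all genes, while 1.13% had every irradiated library lower. Sqstm1 stood at 48.4, 51.5 and 59.6 FPKM in irradiated CD24+ cells, against 42.2 and 60.1 FPKM in non-irradiated CD24+ cells, and Map1lc3a at 4.37, 5.58 and 5.83 FPKM, against 3.89 and 5.09 FPKM. Both genes overlapped between the groups.

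The log2 ratio of Map1lc3a to Map1lc3b was -3.16 ± 0.17 in irradiated (SD, n = 3) and -3.17 ± 0.34 in non-irradiated CD24+ cells (SD, n = 2; difference 0.0067, exact two-sided permutation test, p = 1, where 0.2 is the smallest p possible). That of Sqstm1 to Nbr1 was 0.79 ± 0.21 in irradiated and 0.90 ± 0.35 in non-irradiated CD24+ cells (difference -0.11, exact two-sided permutation test, p = 0.6). Among the other autophagy genes the most abundant of each role group lay above 0 on the deposited scale, with Gabarap at 0.33 ± 0.29 (SE, adjusted p = 0.448), Tax1bp1, a cargo receptor gene, at 0.53 ± 0.28 (adjusted p = 0.348), Prkaa1 at 0.44 ± 0.21 (adjusted p = 0.348) and Atg13 at 0.088 ± 0.20 (adjusted p = 0.742). Vamp8 (0.23), Atg3 (0.23), Vmp1 (0.19), Rab2a (0.19) and Nrbf2 (0.13) lay between these values and none passed. After median-of-ratios scaling 7 of these 9 lay below 0, from -0.35 (Atg13) to -0.13 (Gabarap), and Tax1bp1 (0.081) and Prkaa1 (0.051) above it.

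Irradiated CD24− against non-irradiated CD24+ cells differ in both gate and irradiation and share their libraries with the comparisons above. Called higher were 6 of the 9 members, against 65.7% of all genes (4.99% were called lower), namely Becn1 (log2 fold change 1.36 ± 0.24 SE), Atg5 (1.25 ± 0.21), Atg4b (1.22 ± 0.21), Atg16l1 (0.77 ± 0.22), Map1lc3b (0.74 ± 0.21) and Map1lc3a (0.53 ± 0.20, adjusted p = 0.0362). In the fit of only these groups the calls of Map1lc3b (adjusted p = 0.0791) and Map1lc3a (adjusted p = 0.126) ended, and leaving out 1 library ended that of Map1lc3a in 7 of 8 cases (adjusted p between 0.0564 and 0.149). In 7 of the 9 every CD24− library was above both controls, and in Atg7 every one was below, against 70.1% and 6.17% of all genes. After median-of-ratios scaling Becn1 was called higher and Ulk1, Atg7 and Sqstm1 lower (27.3% and 25.9% of all genes), and in TPM all 9 were higher (94.1%, with 1.66% lower). Becn1 alone was called higher under all 3 scalings, as were 27.8% of all genes. Here too the count over all genes, 3042, is that of median-of-ratios scaling by itself. Atg7 stood at -0.35 ± 0.19 (SE, adjusted p = 0.110) and was called lower after median-of-ratios scaling (-1.32, adjusted p = 0.000448) and higher in TPM (0.91, adjusted p = 0.0014). Of the 68 other genes 53 were called higher and 3 lower (Wipi1, Ccpg1 and Fam134b), and after median-of-ratios scaling 13 higher and 11 lower. The highest fold change of a named gene was again that of Optn (2.80 ± 0.30, adjusted p = 2.75e-05), and other genes past 1.8 were Vmp1 (2.12 ± 0.28), Vamp8 (1.88 ± 0.25), Tmem41b (1.98 ± 0.22), Vps18 (1.90 ± 0.21), Snap29 (1.88 ± 0.20) and Atg9a (1.86 ± 0.21).

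Over the 8 libraries the members differed in pattern, given here as a description since the libraries share their groups. Pearson's r of log2(FPKM + 1) between Becn1, Atg5, Atg4b and Map1lc3b was 0.930 to 0.992, whereas Atg7 had r = -0.819 with Becn1 and -0.849 with Atg5, and Ulk1 had r = 0.525 with Becn1 and -0.045 with Atg7. The genes most like Becn1 were Opa1 (r = 0.999), a mitochondrial fusion gene, the entry 9-Sep (0.999), a date-like name left by a spreadsheet, and 2310061I04Rik (0.999), but 5574 genes had an r above 0.9 with it. Those most like Atg7 were Sox9 (r = 0.988), a transcription factor gene that Paneth cell formation requires in mouse, Vmac (0.987) and Ergic1 (0.986), with 375 genes above 0.9.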

How the data were processed

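The authors deposited 1 table of FPKM per gene and library, per the file headers; TopHat2 2.1.0, StringTie 1.3.4 and build mm9 are listed in the submitters' processing notes, and the annotation is not given in the sources used here. RNA was made into libraries with a TruSeq v2 kit, per the labels' protocols, which keeps no strand. The 24015 entries gave 24013 symbols after 2 repeated ones were summed. Genes with at least 1 FPKM in at least 2 libraries were kept (11190) and log2(FPKM + 1), which pulls low genes toward 0, was fitted over all 8 libraries with limma 3.58.1 in R 4.3.3 (mean-variance trend, Benjamini-Hochberg adjustment). Ratios within a library were tested exactly with scipy 1.17.1 in Python 3.11.15, and figures drawn with matplotlib 3.10.9. The fit was tested on simulated data. Residuals of same-numbered irradiated CD24− and CD24+ libraries correlated across genes at r = 0.366, 0.231 and 0.402. Their numbers were therefore taken as pairs in a replicate block, run as an alternative. The main fit and the exact tests of ratios took the libraries as unpaired. Depth was approximated from the smallest common step of FPKM times transcript length (GENCODE M21, genes with 1 transcript) and covers counting only.

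All 10 members are described in each comparison. Of the 69 other autophagy genes, the text names per comparison and role group up to 2 called genes with the smallest p, or the most abundant one where none was called, genes of small counts, and the 3 genes most correlated with the members of highest and lowest fold change between the irradiated gates. Members and lists were chosen with earlier results of these data known. Alternatives were pseudocount 0.1, no filter or 5 FPKM, TPM, median-of-ratios scaling, only the 2 groups compared, the block (also with median-of-ratios scaling) and leaving out each library. The count of genes called under all 3 scalings was added after seeing the data.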

Additional observations from a re-analysis of the deposited data

How the results depend on the processing

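For irradiated CD24− against irradiated CD24+ cells, 9 members and 10623 of all genes (92.4%) were called in TPM. After median-of-ratios scaling 28 of the 68 other autophagy genes were called, and 32 with the replicate block and that scaling. These 2 settings called 58.2% and 61% of all genes. Leaving out 1 library gave 3 to 6 members, with Map1lc3b lost without any of the 6 irradiated libraries, and Atg7 and Atg16l1 added without either control. Without 1 of these 6 irradiated libraries 45.3% to 54.1% of all genes were called between the irradiated gates. For irradiated CD24− against non-irradiated CD24+ cells, 24 other autophagy genes were called after median-of-ratios scaling and 23 with the block added. These settings called 53.1% and 51.9% of all genes. For irradiated against non-irradiated CD24+ cells, the count over all genes was 1 with no filter, 5 after median-of-ratios scaling, 17 in the fit of only these groups, 92 with the replicate block and 1 with the block and that scaling. Leaving out 1 library gave 0 to 5185 genes, 0 to 4 members and 0 to 25 other autophagy genes, the high values coming without non-irradiated replicate 2. The cause of these shifts was not tested.

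Median-of-ratios scaling turned these member log2 fold changes round. For irradiated CD24− against irradiated CD24+ cells they were Ulk1 -0.51, Atg16l1 -0.10, Map1lc3a -0.20, Map1lc3b -0.10 and Sqstm1 -0.35, with the same values under the block. For irradiated against non-irradiated CD24+ cells they were Ulk1 -0.18, Becn1 -0.11, Atg5 -0.19, Atg7 -0.39, Atg16l1 -0.078, Atg4b -0.087, Map1lc3a -0.20, Map1lc3b -0.24 and Sqstm1 -0.38, and with the block -0.18, -0.13, -0.16, -0.36, -0.065, -0.14, -0.28, -0.27 and -0.53 in that order of genes. For irradiated CD24− against non-irradiated CD24+ cells they were Ulk1 -0.70, Atg16l1 -0.18, Map1lc3a -0.40, Map1lc3b -0.34 and Sqstm1 -0.73, and with the block -0.69, -0.17, -0.48, -0.37 and -0.87. Atg7 stood at 0.74 and 0.91 in TPM for CD24− cells against irradiated and non-irradiated CD24+ cells, and Sqstm1 at -0.059 with the block alone for irradiated against non-irradiated CD24+ cells.

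Leaving out 1 library gave a range of -0.080 to 0.068 for Ulk1 between the irradiated gates, and for irradiated against non-irradiated CD24+ cells -0.0054 to 0.061 for Atg7, -0.18 to 0.32 for Sqstm1 and -0.0074 to 0.62 for Atg16l1. The Map1lc3a to Map1lc3b ratio difference for irradiated against non-irradiated CD24+ cells was -0.028 with a pseudocount of 1, -0.070 with the replicate block and -0.24 to 0.25 without 1 library, and for CD24− against non-irradiated CD24+ cells -0.37 to 0.12. The Sqstm1 to Nbr1 difference without 1 library was -0.17 to 0.087 between the irradiated gates, -0.36 to 0.14 for irradiated against non-irradiated CD24+ cells and -0.40 to 0.097 for CD24− against non-irradiated CD24+ cells. With the block Map1lc3b lost its call between the gates (adjusted p = 0.0700) and Map1lc3a its call for CD24− against non-irradiated CD24+ cells (adjusted p = 0.109), and no other member call changed. The numbers of non-irradiated libraries only share a label, with residual correlations of 0.232 and -0.0499 to irradiated CD24+ and 0.198 and 0.0993 to irradiated CD24− libraries. With no filter on low values Atg7 was called lower between the irradiated gates (adjusted p = 0.0399). The comparison with non-irradiated cells has 2 controls, and Lrrk2 lies at the level of 1 read.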
